A study of Homo sapiens with 8 samples.

Results

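Collagen VI and the other non-fibrillar collagens of the matrix around fibrils, of fibril surfaces and of the cell membrane were examined in LX-2, a long-established line of human stellate cells from the liver. The set was given by symbol as 10 chains, COL6A1, COL6A2, COL6A3, COL8A1, COL12A1, COL13A1, COL14A1, COL15A1, COL16A1 and COL18A1, and a chain was taken where its symbol stood in the first column of the authors' deposited table. Of these 10, 8 were listed among 14870 rows, and COL14A1 and COL15A1 were not listed. The ML290 group had 4 samples given TGF-β1, a cytokine under which stellate cells make matrix, together with 5 µM ML290, a small molecule that activates RXFP1, the receptor of relaxin, for 72 h. The TGF-β1 was recombinant human protein. The DMSO group had 4 samples given the same TGF-β1 with the solvent DMSO for the same time. Both groups thus carried TGF-β1, and a group without it was not part of the comparison. The model is a single cultured line, without the other cell types of a liver. Each group is given as the authors' least-squares mean of a normalised read count over its 4 samples, and no value per sample, SD or SE stands beside the means here. The only measure of error from replicates is the adjusted p that the authors' deposited table holds, from a test that is not given in the sources used here.

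All collagens are trimers of chains with a Gly-X-Y repeat, and they differ in what they build. Collagen VI joins an α1, an α2 and an α3 chain, the products of COL6A1, COL6A2 and COL6A3, into beaded microfilaments that lie between cells and the fibrils of collagens I and III, and the C-terminal end of the α3 chain is cleaved off as endotrophin, a fragment studied as a marker of fibrosis. Collagens XII, XIV and XVI sit on or near fibrils, collagen VIII forms short-chain networks, collagen XIII spans the plasma membrane, and collagens XV and XVIII carry glycosaminoglycan chains in basement membranes and release endostatin-like fragments. In the injured liver, stellate cells turned myofibroblasts are a main source of such matrix.

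Promoter sequences are shown for 4 of the chains that had a window: the α3 and α2 chains of collagen VI, which bind into the same molecule, COL12A1, which fell, and COL13A1, which rose. COL6A1 and COL8A1, which also fell, had no window. These 4 windows and the motifs were chosen with the expression values known. Each is the 250 bases before the RefSeq start on GRCh38.p14, printed 5′ to 3′ on the strand of the gene. COL6A3 lies at chr2:237414165-237414414 on the minus strand, COL6A2 at chr21:46097862-46098111 on the plus strand, COL12A1 at chr6:75206054-75206303 on the minus strand and COL13A1 at chr10:69801656-69801905 on the plus strand. Capitals mark matches on either strand to the SMAD-binding letters CAGAC, the GC box with letters GGGCGG, the AP-1 site with letters TGANTCA, the TATA box with letters TATAAA, the CCAAT box, and the TEAD site with letters GGAATG.
COL6A3: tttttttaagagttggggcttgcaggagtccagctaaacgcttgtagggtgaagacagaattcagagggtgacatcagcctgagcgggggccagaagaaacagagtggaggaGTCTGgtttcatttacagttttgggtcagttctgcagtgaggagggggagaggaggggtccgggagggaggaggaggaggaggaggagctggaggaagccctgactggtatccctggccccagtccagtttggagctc
COL6A2: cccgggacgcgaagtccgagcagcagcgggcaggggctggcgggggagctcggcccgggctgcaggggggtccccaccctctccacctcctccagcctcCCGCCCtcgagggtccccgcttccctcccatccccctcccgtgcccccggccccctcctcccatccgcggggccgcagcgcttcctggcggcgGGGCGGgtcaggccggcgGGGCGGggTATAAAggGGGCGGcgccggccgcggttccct
COL12A1: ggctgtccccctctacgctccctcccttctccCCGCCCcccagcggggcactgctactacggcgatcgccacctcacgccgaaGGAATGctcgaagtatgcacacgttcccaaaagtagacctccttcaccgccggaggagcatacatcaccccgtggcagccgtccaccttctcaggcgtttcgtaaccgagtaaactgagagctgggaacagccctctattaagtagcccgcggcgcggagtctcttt
COL13A1: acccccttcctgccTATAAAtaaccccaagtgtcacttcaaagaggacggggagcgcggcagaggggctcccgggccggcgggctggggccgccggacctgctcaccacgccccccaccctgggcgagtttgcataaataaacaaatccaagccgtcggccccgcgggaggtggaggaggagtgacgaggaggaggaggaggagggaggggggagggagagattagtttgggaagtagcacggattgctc

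The window of COL6A3 held 1 SMAD sequence, on the strand opposite to the gene and 138 bases before the start, and none of the other motifs. CAGAC occurred in 38.0% of 35116 human promoter windows of the same length. The window of COL6A2 held 4 GC boxes, and 42.6% of all windows held at least 1. It also held a TATA box 32 bases before the start. TATAAA lay anywhere on either strand in 10.7% of windows. On the gene strand 15 to 45 bases before the start it lay in 836 of the 35116. COL12A1 had 1 GC box and 1 TEAD sequence, and 11.9% of all windows held the TEAD sequence. COL13A1 had 1 TATA box, 236 bases before the start. AP-1 and CCAAT sequences were in none of the 4 windows, against 6.57% and 32.0% of all windows. The GC content was 56.0% for COL6A3, 79.6% for COL6A2, 61.2% for COL12A1 and 64.0% for COL13A1, and the median of all windows was 58.0%. A match is a description of letters, and the same gene can start elsewhere. The table of windows holds COL18A1 at 2 starts, for example, while the expression table gives the gene a single row. By GENCODE 29, COL6A3 extends to 237414375, so most of its window, with the SMAD match, lies inside the annotated gene. The bases nearest the start in the COL6A2 and COL13A1 windows also lie inside the annotated genes, which begin at 46098097 and 69801867.

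With ML290, 4 of the 8 listed chains were lower, 1 was higher and 3 missed the threshold, an adjusted p of 0.05 in the authors' deposited table. Among all 14870 rows 35.1% passed, 15.6% lower and 19.5% higher. The lower chains were COL6A3, the α3 chain of collagen VI, COL12A1, COL8A1 and COL6A1, and the higher chain was the transmembrane COL13A1. With a fold of at least 1.5 besides, 3 chains were lower, against 4.77% of all rows. The median log2 ratio of the 8 was -0.25, beside 0.02 over all rows of the authors' deposited table. Summed over the 8, the normalised read count was 1772 with ML290 against 2600 with DMSO. This was 0.254% and 0.370% of the sum over all 14870 rows, which need not hold every read of a library. In RNA of a whole culture, fewer cells that make a transcript and less of it per cell cannot be told apart.

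**Figure D1:**
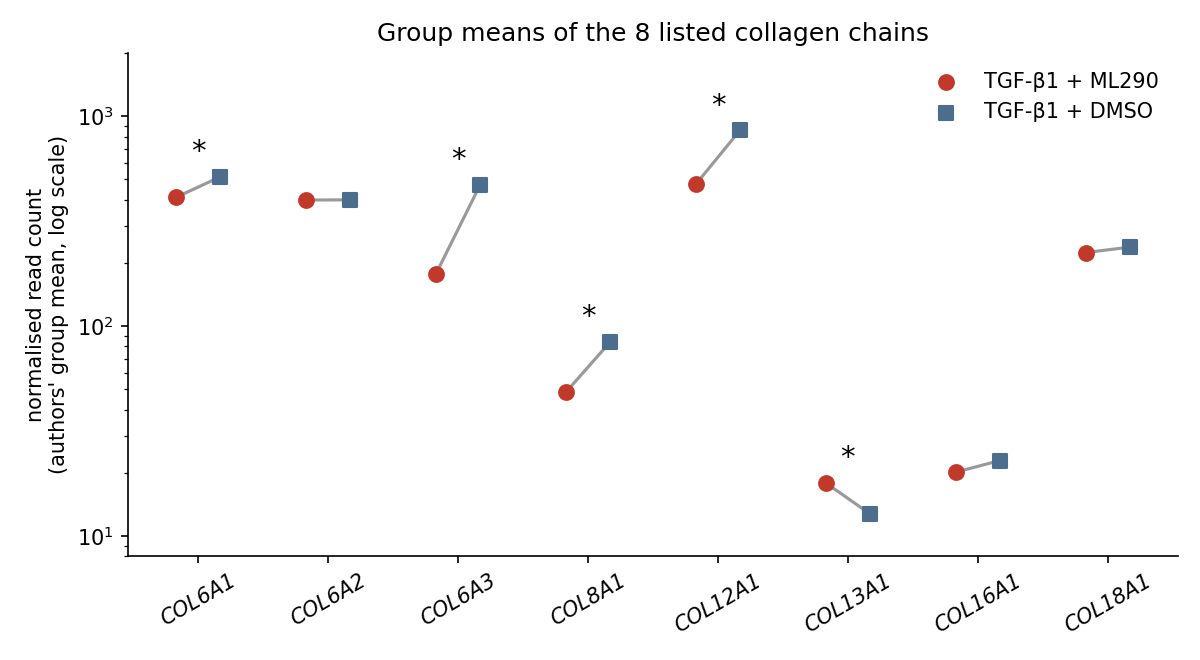
Normalised read counts (authors' group means, log axis) of the 8 listed chains with TGF-β1 and ML290 (circles, left of each pair) and with TGF-β1 and DMSO (squares, right). Stars mark chains that passed 0.05 by the adjusted p in the authors' deposited table: COL6A3, COL12A1, COL8A1 and COL6A1 are lower with ML290, COL13A1 is higher, and the pairs of COL6A2, COL16A1 and COL18A1 lie nearly level.

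Within collagen VI the ratios of the chains lay apart. The authors' deposited table gives COL6A3 a level of 177.6 with ML290 against 471.5 with DMSO, 2.65-fold lower (adjusted p = 1.70e-08). COL6A1 had 411.0 with ML290 against 514.4 with DMSO, 1.25-fold lower (adjusted p = 0.00228, the authors' deposited table). For COL6A2 the authors' deposited table gives 398.7 with ML290 and 399.4 with DMSO, a log2 ratio of -0.0023 (adjusted p = 0.967). Scaled to equal totals of both groups, this ratio turned to the other side of 0, at 0.0068. The α3 and α1 chains thus fell, and the α2 chain did not pass. Whether the 3 ratios differ from each other could not be tested without values per sample.

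The counts behind these means were large. The low values of the table lie mostly on multiples of a common step, taken as 1 read, and on that step COL6A3 had about 13596 reads over the 4 ML290 libraries against about 39612 over the 4 DMSO libraries. The exact (Clopper-Pearson) 95% interval of its ratio from counting alone was 0.369 to 0.384. For COL6A1 the interval was 0.788 to 0.811 and for COL6A2 0.983 to 1.01. These 3 intervals do not overlap, but they cover counting error only and leave out the spread between cultures. Reads are not independent molecules, so they are also too narrow as counting intervals.

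Divided by the length of the longest annotated transcript, the chains of collagen VI also stood at unequal levels. COL6A1 had 97.0 normalised reads per kb with ML290 against 121.4 with DMSO, and COL6A2 had 115.2 with ML290 against 115.4 with DMSO. COL6A3, the longest of them at 10749 bases, had 16.5 per kb with ML290 against 43.9 with DMSO. The level of COL6A3 per kb was therefore 0.170 of that of COL6A1 with ML290 and 0.361 with DMSO. As a share of the 3 chains per kb, COL6A3 made up 7.22% with ML290 and 15.6% with DMSO. With all annotated exons merged in place of the longest transcript the level relative to COL6A1 was 0.118 with ML290 and 0.249 with DMSO, so the absolute proportion depends on the length used. COL6A3 is annotated with 14 transcripts, COL6A1 with 7 and COL6A2 with 8, and the table does not separate them.

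**Figure D2:**
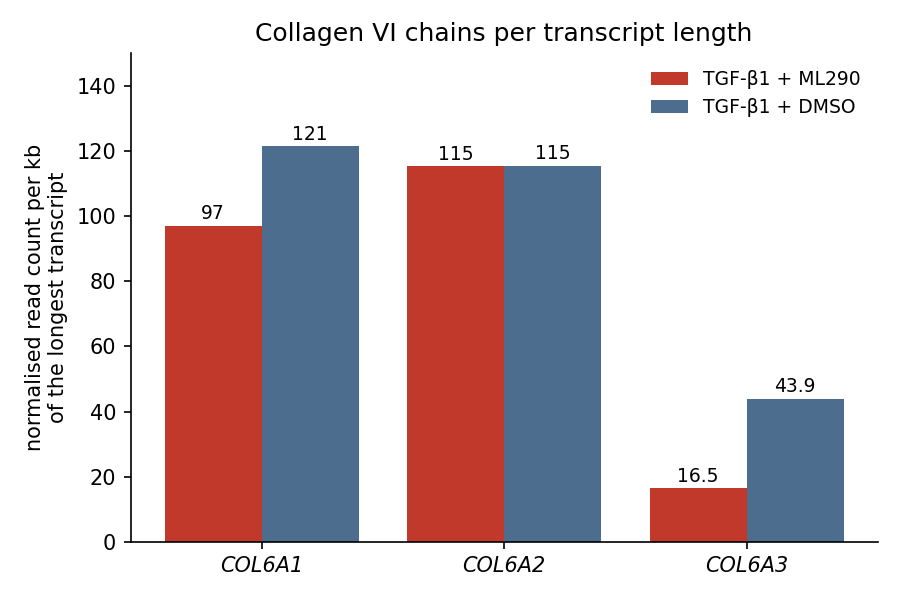
Normalised reads per kb of the longest GENCODE transcript for the chains of collagen VI, with TGF-β1 and ML290 in the left bar and TGF-β1 and DMSO in the right bar of each pair. The COL6A3 bar is 16.5 with ML290 against 43.9 with DMSO, while both COL6A2 bars stand at about 115; no error is drawn because only group means were used.

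The paralogous chains COL6A5 and COL6A6, which can take the place of α3 in some tissues, were not listed in the authors' deposited table. Of the receptors that bind collagen VI, ANTXR2, also named CMG2, which takes the protein up for degradation, had 99.2 with ML290 against 63.2 with DMSO, 1.57-fold higher (adjusted p = 8.94e-06, the authors' deposited table). The proteoglycan CSPG4, or NG2, had 399.0 with ML290 against 346.8 with DMSO, 1.15-fold higher (adjusted p = 0.0344, the authors' deposited table). ANTXR1, a receptor proposed for the endotrophin fragment, had 106.1 with ML290 against 97.0 with DMSO, with an adjusted p of 0.109 in the authors' deposited table. CSPG4 and ANTXR1 lie outside the naming rule and were chosen for their role after their values were seen.

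Collagen XII is a fibril-associated collagen that bridges collagen I fibrils to other matrix and is laid down in tissue under load. COL12A1 had 474.2 with ML290 against 857.7 with DMSO, 1.81-fold lower (adjusted p = 1.05e-07, the authors' deposited table). Among the 8 chains, COL6A1 and COL6A2 alone stood above it per kb in either group, where it had 40.4 with ML290 against 73.2 with DMSO. Collagen VIII forms hexagonal networks in vessel walls and in remodelling tissue. COL8A1, its α1 chain, had 48.5 with ML290 against 83.9 with DMSO, 1.73-fold lower (adjusted p = 5.56e-07, the authors' deposited table). COL8A2, the α2 chain of collagen VIII, was near the floor, with 1.15 with ML290 against 2.11 with DMSO, 1.83-fold lower (adjusted p = 0.0433, the authors' deposited table). Both chains of collagen VIII therefore fell, COL8A2 at a level where few reads stand behind the ratio.

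COL13A1 was the exception in direction. Its product is a collagen anchored in the plasma membrane at sites of adhesion, whose ectodomain is cut off by furin-type proteases. It had 17.9 with ML290 against 12.8 with DMSO, 1.40-fold higher (adjusted p = 0.000209, the authors' deposited table). About 1370 reads with ML290 and 1071 with DMSO lay behind this, and the exact 95% counting interval of the ratio was 1.30 to 1.52. Among the other transmembrane collagens, COL17A1 had 0.834 with ML290 against 0.559 with DMSO (adjusted p = 0.139) and COL25A1 had 1.52 with ML290 against 2.00 with DMSO (adjusted p = 0.210) by the authors' deposited table, and COL23A1 was not listed. Furin itself had 143.5 with ML290 against 129.0 with DMSO, with an adjusted p of 0.141 in the authors' deposited table; FURIN was named for its role, after its value was seen.

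The remaining listed chains did not pass. COL16A1, a minor collagen found near fibrils and fibrillin microfibrils, had 20.1 with ML290 against 22.9 with DMSO, a log2 ratio of -0.18 (adjusted p = 0.140, the authors' deposited table). COL18A1, the core protein of a basement membrane heparan sulphate proteoglycan and the source of endostatin, had 224.1 with ML290 against 237.7 with DMSO, a log2 ratio of -0.09 (adjusted p = 0.469, the authors' deposited table). The counting interval alone was 0.822 to 0.941 for COL16A1 and 0.923 to 0.962 for COL18A1. Both intervals lie below 1 while the adjusted p did not pass. The intervals leave out the spread between cultures, and a miss does not show that the levels were alike. COL18A1 shares its locus with SLC19A1, the reduced folate carrier on the opposite strand, which had 43.7 with ML290 against 48.7 with DMSO (adjusted p = 0.108), and with COL18A1-AS1, which had 0.912 with ML290 against 1.03 with DMSO, both from the authors' deposited table. The use of strand in the counting is not given in the sources used here, so reads of the overlapping parts cannot be told apart.

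Per kb of the longest transcript, the order of the 8 chains from high to low with ML290 was COL6A2, COL6A1, COL12A1, COL18A1, COL6A3, COL8A1, COL13A1 and COL16A1. With DMSO it was COL6A1, COL6A2, COL12A1, COL6A3, COL18A1, COL8A1, COL13A1 and COL16A1. The orders differ in the first pair of places and in the fourth and the fifth, where COL18A1 had 34.0 per kb and COL6A3 16.5 with ML290, against 36.1 and 43.9 with DMSO. COL13A1 and COL16A1 stood at 5.62 and 3.51 per kb with ML290 and at 4.001 and 3.991 with DMSO. These differences between the orders depend on the length used. Per kb of merged exons COL6A1 stood above COL6A2 in both groups, with 76.9 and 74.0 with ML290 and 96.3 and 74.1 with DMSO. COL18A1 then stood above COL6A3 in both, with 26.3 and 9.05 with ML290 and 27.9 and 24.0 with DMSO. COL13A1 and COL16A1 alone changed places between the groups on that length, at 3.04 and 2.17 with ML290 and 2.17 and 2.47 with DMSO. Without a spread between samples it cannot be said which neighbours in these orders differ.

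Set among the 8860 rows with a mean level of at least 10, which all 8 chains reach, COL6A3 lay far into the lower tail. Only 17 of these rows, or 0.192%, had a lower ratio in the authors' deposited table. A lower ratio than that of COL12A1 was found in 108 rows (1.22%) and than that of COL8A1 in 125 rows (1.41%). COL6A1 lay less far out, with 10.1% of rows below it, and 8.42% of rows had a higher ratio than COL13A1. The ratios of COL16A1, COL18A1 and COL6A2 had 20.3%, 33.0% and 45.3% of rows below them. These places describe the table and are not tests.

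**Figure D3:**
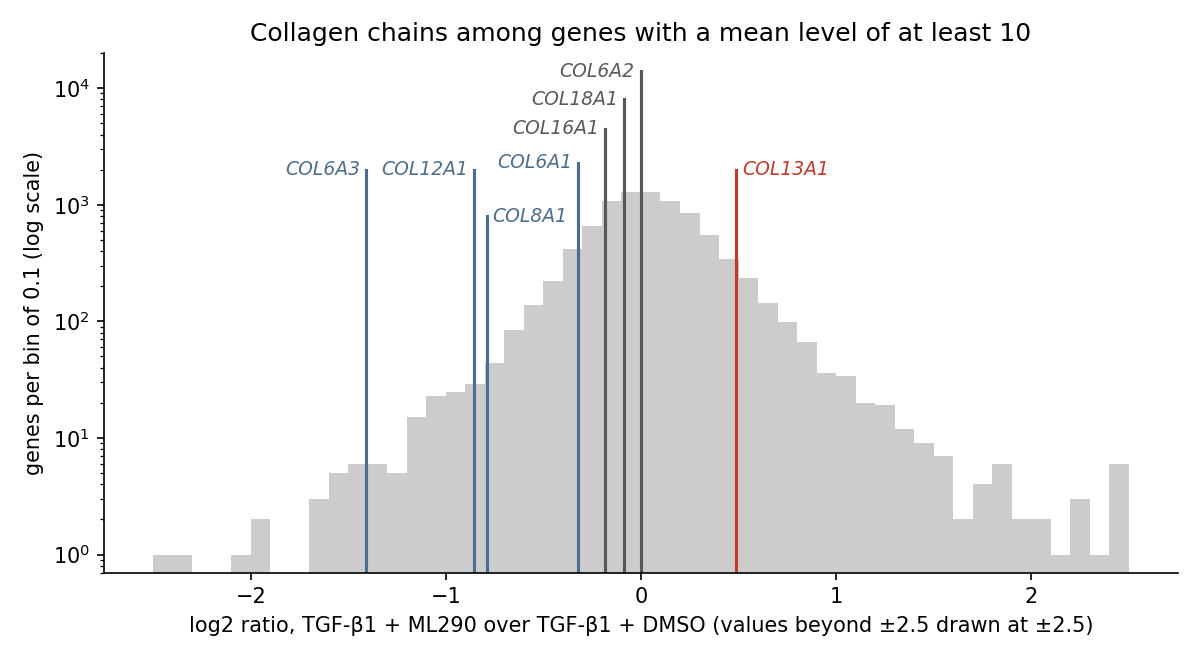
Histogram of log2 ratios, ML290 over DMSO, for the 8860 rows with a mean level of at least 10 (bins of 0.1, log axis for the number of genes), with the 8 chains drawn as lines. COL6A3 at -1.41, COL12A1 at -0.86 and COL8A1 at -0.79 lie in the lower tail, COL13A1 at 0.49 on the upper side, and COL6A2, COL18A1 and COL16A1, in grey, near the middle.

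Other collagens gave a scale for these changes. Among the 18 collagen chains with a mean level of at least 10, COL6A3 had the lowest ratio but for the fibrillar COL3A1, and COL13A1 had the highest. In the authors' deposited table, 7 of 9 listed fibrillar chains were lower and 1 higher (COL27A1, named after its value was seen), with a median log2 ratio of -1.04, and of 6 chains of basement membrane collagen IV 4 were lower and 0 higher, with a median of -0.51. COL3A1 was 3.88-fold lower and COL5A2 1.87-fold lower (adjusted p = 7.85e-10 and 6.07e-08, the authors' deposited table). At low levels, COL11A1 was 4.18-fold lower and COL5A3 10.5-fold lower, by the authors' deposited table, which has COL5A3 at 0.222 with ML290 against 2.32 with DMSO. In collagen IV, COL4A1 was 1.57-fold, COL4A5 1.55-fold, COL4A4 1.63-fold and COL4A2 1.31-fold lower in the authors' deposited table. Of 6 other listed chains 1 was lower, COL8A2, and 0 were higher. The most abundant of them, the anchoring fibril chain COL7A1, had 77.3 with ML290 against 71.5 with DMSO (adjusted p = 0.382, the authors' deposited table). At an unadjusted p under 0.05 the number of higher chains was likewise 0 in collagen IV and 0 in these others. Among all 14870 rows 3580 were higher at that cut, and a count of 0 among 6 chains was not tested against this. Over all 21 listed collagen chains outside the set, 12 were lower and 1 higher, with a median log2 ratio of -0.63. Lower chains made up 77.8% of the fibrillar, 66.7% of the collagen IV and 16.7% of the other chains, and 57.1% of the 21. Higher chains made up 11.1% of the fibrillar chains and 4.76% of the 21. Among all rows 15.6% were lower and 19.5% higher. The difference between the classes was not tested.

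Of 14 listed small proteoglycans, glycoproteins and microfibril proteins of fibril surfaces, 10 were lower and 1 was higher by the authors' deposited table, with a median log2 ratio of -0.64. These are 71.4% lower and 7.14% higher, beside 15.6% and 19.5% of all rows. FBLN2, a fibulin of microfibrils, had 92.3 with ML290 against 165.6 with DMSO, 1.79-fold lower (adjusted p = 3.61e-06), and the fibrillin FBN1 was 1.43-fold lower (adjusted p = 3.96e-06; values of the authors' deposited table). TGFBI, which binds collagen VI microfibrils, had 502.6 with ML290 against 1024 with DMSO, 2.04-fold lower (adjusted p = 3.15e-05, the authors' deposited table). The higher gene was TNXB, a tenascin that binds collagens XII and XIV, with 33.6 with ML290 against 14.8 with DMSO, 2.27-fold higher (adjusted p = 4.47e-06, the authors' deposited table). TNXB has a near-identical partial copy, TNXA, so its reads may be shared.

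Of 9 listed heparan sulphate proteoglycans, the class to which collagen XVIII belongs, 5 were lower and 0 were higher by the authors' deposited table, with a median log2 ratio of -0.28. These are 55.6% lower and 0% higher, beside 15.6% and 19.5% of all rows. With a fold of at least 1.5 besides, 1 was lower, SDC3, against 4.77% of all rows. The syndecan SDC3 was 1.66-fold lower, perlecan, HSPG2, 1.45-fold, and SDC4 and SDC2 1.31-fold and 1.22-fold (adjusted p = 6.25e-07, 9.35e-05, 0.0001 and 0.00892, the authors' deposited table). At an unadjusted p under 0.05 the number of higher proteoglycans was also 0, beside 3580 of all 14870 rows, and this difference was not tested. COL18A1 itself did not pass, as given above.

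Of 12 listed collagen receptors, 4 were higher and 1 lower, with a median log2 ratio of 0.14 in the authors' deposited table. These are 33.3% higher and 8.33% lower, beside 19.5% and 15.6% of all rows. The integrin chain ITGA2, which binds fibrillar collagens, had 86.3 with ML290 against 40.9 with DMSO, 2.11-fold higher (adjusted p = 2.20e-06, the authors' deposited table). The hyaluronan and matrix receptor CD44 was 1.23-fold higher and the collagen uptake receptor MRC2 1.22-fold lower (adjusted p = 0.00539 and 0.0190, the authors' deposited table). The share passing was 41.7%, beside 35.1% of all rows.

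Of 16 listed proteases, 6 were higher (37.5%) and 5 lower (31.2%) by the authors' deposited table, beside 19.5% and 15.6% of all rows, with a median log2 ratio of 0.00. The list joins proteases for shedding of collagen XIII, for release of endostatin and for other cleavage of matrix proteins. Cathepsin L, CTSL, which frees endostatin from collagen XVIII, had 167.6 with ML290 against 119.7 with DMSO, 1.40-fold higher (adjusted p = 1.30e-05, the authors' deposited table). Cathepsin S, CTSS, was 2.40-fold higher, and CTSV and the gelatinase MMP9 were 1.95-fold and 2.39-fold lower (adjusted p = 1.51e-05, 5.33e-05 and 6.71e-05, the authors' deposited table). In the machinery that folds and exports collagen, 6 of 20 listed genes were higher (30%) and 3 lower (15%), with a median log2 ratio of 0.04 in the authors' deposited table. The shares of all rows were again 19.5% and 15.6%, and with a fold of at least 1.5 the folding genes gave 0 higher and 1 lower. Lower with that fold were 4.77% of all rows, while the share higher with it was not computed. The collagen chaperone SERPINH1 and the galactosyltransferase COLGALT1 were 1.53-fold and 1.38-fold lower, and MIA3, or TANGO1, which loads collagen into export carriers, and P3H3 were 1.43-fold and 1.40-fold higher (adjusted p = 7.00e-06, 2.15e-05, 4.41e-05 and 0.000544, the authors' deposited table).

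**Figure D4:**
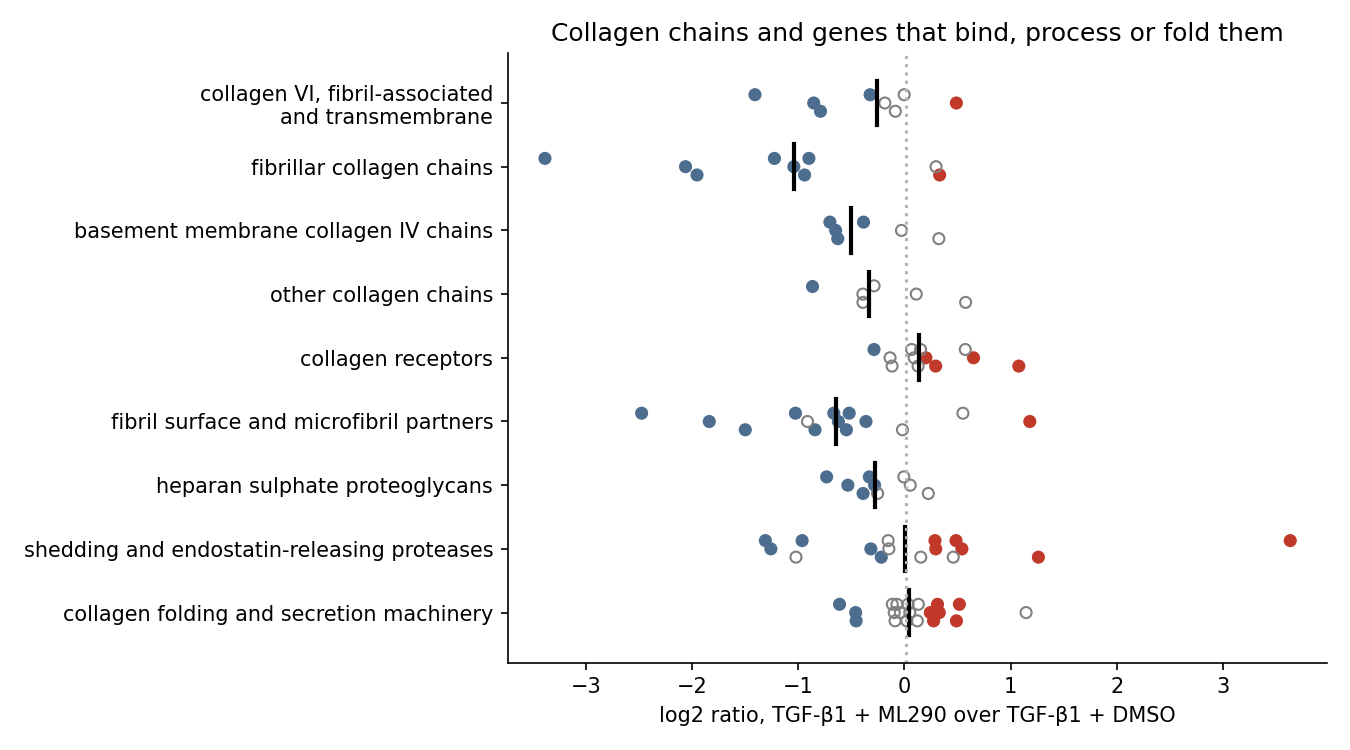
Log2 ratios, ML290 over DMSO, of collagen chains by class and of genes that bind, process or fold collagens; each point is a gene, filled where the authors' deposited table gives an adjusted p under 0.05 (red higher, blue lower) and open otherwise. Black bars are medians, from -1.04 for fibrillar chains and -0.25 for the collagen VI, fibril-associated and transmembrane set to 0.14 for collagen receptors, and the dotted line is the median of all rows, 0.02.

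The genes lie apart in the genome, with 1 exception. On GRCh38 with GENCODE 29, COL18A1 (chr21:45405137-45513720), COL6A1 (chr21:45981737-46005050) and COL6A2 (chr21:46098097-46132849) lie on the plus strand within 728 kb of chromosome 21. Their log2 ratios were -0.09, -0.32 and -0.0023, and COL6A1 alone passed among the 6 listed genes of this stretch in the authors' deposited table. Among all rows 35.1% passed. COL6A1 and COL6A2 are 93.0 kb apart with no listed gene of known position between them. Neighbours here were sought only among the 13943 of 14870 rows with a single GENCODE position, so other listed genes could lie nearer. COL6A3 lies on chromosome 2 (chr2:237324003-237414375, minus strand), and its nearest listed neighbours were COPS8, at 56.3 with ML290 against 65.0 with DMSO (adjusted p = 0.0691), and MLPH, for which the authors' deposited table gives 14.8 with ML290 against 15.3 with DMSO (adjusted p = 0.809). COL12A1 lies at chr6:75084326-75206051, beside COX7A2, which had 42.0 with ML290 against 42.9 with DMSO (adjusted p = 0.736, the authors' deposited table). COL8A1 lies at chr3:99638475-99799226, where CMSS1, 18.6 kb away, had 12.5 with ML290 against 12.7 with DMSO (adjusted p = 0.850, the authors' deposited table). COL13A1 lies at chr10:69801867-69964275, and TSPAN15, 294.2 kb before it, had 7.10 with ML290 against 12.9 with DMSO, 1.82-fold lower (adjusted p = 4.65e-05, the authors' deposited table). COL16A1 lies at chr1:31652247-31704319 on the minus strand, and ADGRB2, 22.8 kb away, was 1.42-fold lower (adjusted p = 0.000322, the authors' deposited table). Of the nearest listed genes on the other sides, DCBLD2, 736.8 kb from COL8A1, was 1.73-fold higher, CD109, 1256 kb from COL12A1, 1.36-fold higher, and POFUT2, 117.2 kb from COL18A1, 1.49-fold higher (adjusted p = 1.49e-05, 0.0118 and 4.49e-05, the authors' deposited table). PEF1 beside COL16A1, H2AFY2 beside COL13A1, PCBP3 between COL18A1 and COL6A1, and FTCD beside COL6A2 did not pass, with adjusted p from 0.179 to 0.696 in the authors' deposited table.

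Markers bear on what the cells were. Of 13 stellate cell markers 11 were listed in the authors' deposited table, and desmin (DES) and LRAT, which mark stellate cells in tissue, were not. The 11 listed markers had a summed normalised read count of 5658 with ML290 against 8624 with DMSO, and 7 were lower and 1 higher. These are 63.6% lower and 9.09% higher, beside 15.6% and 19.5% of all rows. The list includes COL1A1 and COL1A2, counted above among the fibrillar chains, and without both the sum was 3529 with ML290 against 3734 with DMSO. SPARC was 2.07-fold, ACTA2 2.98-fold, THY1 1.70-fold and PDGFRB 2.26-fold lower (adjusted p = 6.85e-08, 8.90e-08, 1.23e-07 and 2.96e-07, the authors' deposited table). The higher marker was the intermediate filament protein vimentin, VIM, with 2685 with ML290 against 2284 with DMSO (adjusted p = 0.0101, the authors' deposited table). TIMP1, HGF and NGFR did not pass, TIMP1 with a ratio below 1 and HGF and NGFR with ratios above 1. VIM, TIMP1, HGF and NGFR were named after their values were seen. Of 8 hepatocyte markers 1 was listed, SERPINA1, with 1.39 with ML290 against 1.63 with DMSO, and albumin was not listed. Endothelial markers were listed for 5 of 8, with a summed count of 80.8 with ML290 against 60.0 with DMSO. Among them TIE1 had 78.6 with ML290 against 57.0 with DMSO (adjusted p = 0.000370, the authors' deposited table). PECAM1, VWF and KDR were under 2 in both groups of the authors' deposited table. Macrophage markers were listed for 3 of 8, without PTPRC, with a summed count of 75.8 with ML290 against 41.1 with DMSO. Of these CD68, a lysosomal protein also made by other cells, had 71.7 with ML290 against 35.1 with DMSO (adjusted p = 1.48e-05, the authors' deposited table). The other listed macrophage markers had lower values with ML290, CD14 with 3.59 with ML290 against 5.38 with DMSO (adjusted p = 0.0169) and CSF1R with 0.454 with ML290 against 0.596 with DMSO (adjusted p = 0.381), both from the authors' deposited table. Of 5 cholangiocyte markers KRT7, at 1.91 with ML290 against 3.43 with DMSO, and SOX9, at 42.0 with ML290 against 35.2 with DMSO, were listed. Both passed, KRT7 lower and SOX9 higher (adjusted p = 0.000707 and 0.0421, the authors' deposited table). The model is the LX-2 line alone, so these values describe transcripts of that culture. The purity of the line was not tested here.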

How the data were processed

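RNA of 8 LX-2 samples was sequenced as read pairs of 150 bases, per the labels' protocols. The submitters' processing notes name the build GRCh38 and the tools Partek and STAR, without roles or versions. How reads were counted, filtered, normalized and tested, and with which annotation, is not given in the sources used here. Deposited by the authors was 1 table of their comparison with 14870 rows and 14869 distinct symbols. The group means and the total that the authors deposited are a signal (normalised read counts; the means are least-squares ones per the file headers). The total equals 4 times the sum of both means. The ratio that the authors deposited is ML290 over DMSO, and the signed fold is a score derived from it. The p-value and step-up adjusted p-value are those the authors deposited. Nothing says whether the 4 samples of a group came from separate cultures beyond calling them biological replicates.

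From these were computed log2 ratios, the level (the deposited total divided by 8 samples, which is the mean of both group means), counts past an adjusted p of 0.05, places among rows, and values per kb with GENCODE 29 lengths. No test was recomputed. The table holds group means, so the design's rule for such a file was used. The step of 1 read, fitted to low values of the 4 summed libraries, was 0.0523 for ML290 and 0.0476 for DMSO; 81.7% of 1015 and 93.8% of 961 low values lay within 0.15 of a whole read. If values are scaled to 1000000 reads, this is about 19138756 reads per ML290 library and 21003991 per DMSO library. The step fit and the adjustment were tested on simulated data. GENCODE gave 13943 rows (93.8%) a single position. Promoter windows are from RefSeq (GRCh38.p14), matched by symbol for 7 of the chains. Windows on chromosome 8, where COL14A1 lies, were not used. The members and lists were chosen with earlier results of these data known. Named genes were all listed members, the 4 genes with the smallest adjusted p in each list, the nearest listed neighbours, and a few more marked as chosen later. Alternatives were a stricter threshold, other adjustments, a fold or level minimum, scaling and a pseudocount of 1; the order per kb on merged exons and the stellate sum without collagens were added after seeing the data. Scripts ran on Python 3.11.15 with scipy 1.17.1, pandas 2.3.3, numpy 2.4.6 and, for figures, matplotlib 3.10.9.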

Additional observations from a re-analysis of the deposited data

How the results depend on the processing

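The direction of 7 of the 8 listed chains was the same with a pseudocount of 1, after centring on the median of all rows and after scaling both groups to equal totals. COL6A2, which did not pass, was the exception, with a log2 ratio of 0.0068 at equal totals. For the other 7 these settings could not have changed the direction. A pseudocount cannot move a ratio across 1. Centring shifted every log2 ratio by 0.019 and equal totals by 0.0091, while the smallest of the 7 was -0.086, for COL18A1. The 4 lower chains stayed at 4 at an adjusted p under 0.01, and were 3 with Bonferroni adjustment and 3 with a fold of at least 1.5. They were also 4 with Benjamini-Hochberg adjustment over the rows used and at a level of at least 10. That adjustment gave 5226 calls over all rows, as did the deposited one, so it was not a separate check. All 8 chains reach the level of 10, so that minimum removed none of them and altered only the adjustment. The higher chain, COL13A1, gave a count of 0 with Bonferroni adjustment and 0 with that fold, from which its own 1.40-fold excludes it. The median log2 ratio was -0.27 when centred and -0.25 at equal totals, and the mean in its place was -0.40. Per kb, COL6A3 over COL6A1 was 0.118 with ML290 and 0.249 with DMSO on merged exons, and on that length COL6A1 and COL6A2, and COL18A1 and COL6A3, no longer changed places between the groups. At an adjusted p under 0.01 the count of lower genes was 0 among other collagen chains and 0 among collagen receptors. With a fold of at least 1.5 it was 0 among collagen receptors, 1 among heparan sulphate proteoglycans, 3 among the proteases and 1 in the folding machinery. The count of higher genes with that fold was 0 among fibrillar chains, 2 among receptors, 2 among proteases and 0 in the folding machinery. Among all rows 4.77% were lower with that fold. The shares of all rows at an adjusted p under 0.01, with Bonferroni adjustment, and higher with that fold were not computed. The counts at those settings therefore have no background beside them. No paired analysis was possible because the table holds group means, and for the same reason no replicate could be left out. Depth limits COL8A2 and the other chains near 1 normalised read, and the spread between samples is unknown for all.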
